A study of Mus musculus with 6 samples.

Results

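The genes described here are the 4 VEGF ligand genes Vegfa, Vegfb, Vegfc and Pgf and the 5 receptor genes Flt1, Kdr, Flt4, Nrp1 and Nrp2, chosen by symbol, which make 9 of the 18422 genes in the deposited count table. All 9 had enough reads to be tested. Poly(A) RNA was sequenced from ear skin of mice at postnatal day 21, in 3 libraries from an endothelial-specific Vegfr2 knockout, labelled Vegfr2ecko and called ecko here, and 3 from littermate controls. Every mouse in both groups had received tamoxifen, the drug that induces the deletion. The series describes tamoxifen courses from day 1 and from day 10 after birth without tying one to these mice, so the time since deletion is unknown. The Cre driver, the deleted exon and the alleles of the controls were not given in the sources used.

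Vascular endothelial growth factors are secreted dimers that bind receptor tyrosine kinases on blood and lymphatic endothelium. VEGF-A signals mainly through VEGFR2, the product of Kdr, while VEGFR1, the product of Flt1, binds VEGF-A, VEGF-B and placental growth factor and largely acts as a trap for them. VEGF-C drives lymphatic growth through VEGFR3, the product of Flt4, and the neuropilins Nrp1 and Nrp2 are co-receptors that also serve the semaphorins. In skin, keratinocytes are a known source of VEGF-A, and its gene is a classical target of the hypoxia-inducible factors.

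Libraries held 17255419 to 18054700 counts, and 14866 genes were tested. The labels do not say whether the 3 libraries of a group came from separate animals, so p-values measure the spread between these samples. Reads of 4 Y-linked genes put 4 libraries as male and 2 as female, with replicate 3 of each group the female one. The tissue label was checked against marker genes: summed keratinocyte markers were at 33900 to 36000 CPM (reads scaled to a fixed library total) in controls and 37500 to 40400 CPM in ecko, and no marker of the 9 cell type lists was at 0 in every library.

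The sequences just upstream of 3 genes are shown, since they precede a transcript start of the ligand gene that rose and of the receptor tyrosine kinase genes whose products bind it. Each is the 250 bases before 1 RefSeq transcript start of the gene in GRCm38.p6, 5′ to 3′ on the gene's strand, which is the minus strand for all 3. The Vegfa window adjoins the outer end of the gene, whereas the Kdr and Flt1 windows precede a start that lies inside the gene's full RefSeq span given below, so they fall within that span. Capitals mark GGAA on either strand, the core that ETS transcription factors of endothelium bind. The Vegfa window is chr17:46032378-46032627, the Kdr window chr5:75978456-75978705 and the Flt1 window chr5:147726012-147726261.
Vegfa: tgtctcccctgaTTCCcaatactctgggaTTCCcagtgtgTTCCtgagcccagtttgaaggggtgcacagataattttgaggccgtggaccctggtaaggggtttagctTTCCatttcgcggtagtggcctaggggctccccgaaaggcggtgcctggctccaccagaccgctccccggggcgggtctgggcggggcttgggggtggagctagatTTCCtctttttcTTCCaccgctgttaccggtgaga
Kdr: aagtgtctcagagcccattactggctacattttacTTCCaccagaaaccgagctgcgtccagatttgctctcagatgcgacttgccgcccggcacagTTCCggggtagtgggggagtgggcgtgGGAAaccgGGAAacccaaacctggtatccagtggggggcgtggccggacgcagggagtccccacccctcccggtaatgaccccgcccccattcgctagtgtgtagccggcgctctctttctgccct
Flt1: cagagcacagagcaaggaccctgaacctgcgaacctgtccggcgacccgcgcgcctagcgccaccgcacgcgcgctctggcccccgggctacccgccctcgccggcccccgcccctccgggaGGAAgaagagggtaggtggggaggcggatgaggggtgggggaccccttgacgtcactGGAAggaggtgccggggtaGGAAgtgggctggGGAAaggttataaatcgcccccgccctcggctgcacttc
The core occurred 6 times before Vegfa, 4 times before Kdr and 4 times before Flt1. It was present in 93.4% of 32851 upstream windows of the same length, so its presence sets none of the 3 apart, and 18.0% of windows held 5 or more copies. ACGTG, a form of the core of a hypoxia response element, was on neither strand in these 3 windows and in 16.6% of all windows. The other form, GCGTG, was not counted. ACGTG occurred 1 time in the 250 bases before a second, downstream Vegfa start.

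In ecko skin, Kdr and Flt4 fell, Vegfa rose, and the other 6 genes did not pass the test. A gene passed with a Benjamini-Hochberg adjusted p under 0.05 over all 14866 genes in the edgeR quasi-likelihood test. So 3 of the 9 passed, where 1.76% of all tested genes did (0.686% higher and 1.08% lower). Kdr was the gene deleted by design, so its fall is a check of the labels and not a finding. Groups had no overlapping values in 5 of the 9 genes, against 21.0% of all tested genes. Log2 fold changes are ecko minus control throughout, and the median over all tested genes was 0.00.

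**Figure D1:**
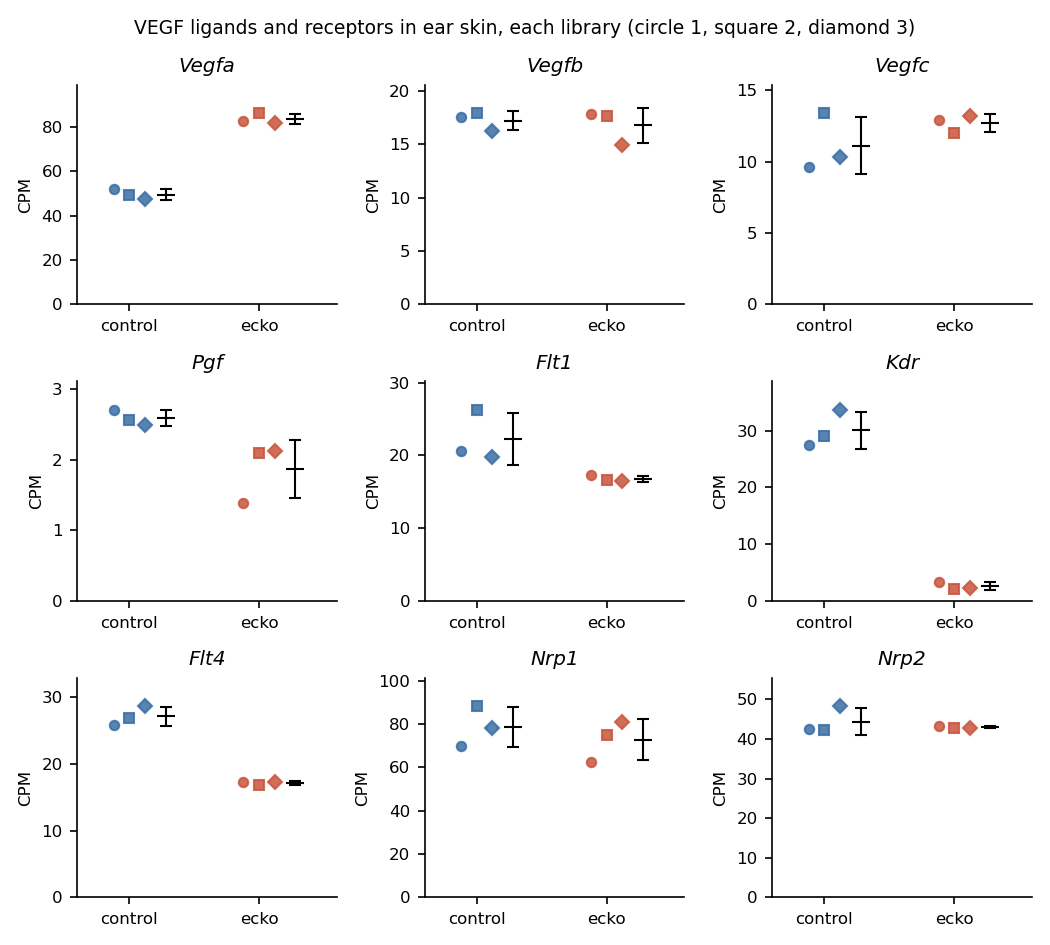
CPM of each VEGF family gene (vertical axis, from 0) in the 3 control (blue) and 3 ecko (red) libraries; symbols mark replicates 1 to 3, and the black bar is the mean with its SD. All ecko libraries lie above all controls for Vegfa, and below them for Kdr, Flt4, Flt1 and Pgf, whereas the groups overlap for Vegfb, Vegfc, Nrp1 and Nrp2.

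Kdr (Entrez 16542, chromosome 5 from 75932827 to 75979072, GRCm38.p6) encodes VEGFR2. It was at 27.4, 29.1 and 33.7 CPM in controls and at 3.36, 2.05 and 2.35 CPM in ecko, from 475, 511 and 595 reads and 58, 37 and 42 reads. Every ecko library was far below every control library. Its log2 fold change was the lowest of all tested genes (-3.54, SE 0.17, edgeR adjusted p = 2.68e-05), and it was -3.38 between the 2 and 2 male libraries and -3.84 between the 1 and 1 female libraries. In the mean, 8.59% of the control level remained. Reads over all exons were summed, so how much of the remainder was transcript without the deleted exon cannot be told.

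Flt4 (Entrez 14257, chromosome 11 from 49609679 to 49652739) encodes VEGFR3, the receptor that lymphatic endothelium uses for VEGF-C. It was at 25.8, 26.9 and 28.6 CPM in controls and at 17.3, 16.8 and 17.2 CPM in ecko. The 3 ecko values lay close together, with a coefficient of variation of 1.54%, and all were below the lowest control. The mean went from 27.1 ± 1.39 to 17.1 ± 0.263 CPM (SD, n = 3 each), a log2 fold change of -0.67 (SE 0.08, edgeR adjusted p = 0.00492), with -0.63 between the male and -0.74 between the female libraries.

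Flt1 (Entrez 14254, chromosome 5 from 147561604 to 147726438) encodes VEGFR1. It was at 20.6, 26.3 and 19.8 CPM in controls and at 17.3, 16.6 and 16.5 CPM in ecko. All ecko values were below all control values, but control 2 stood well above the other controls. The log2 fold change was -0.41 (SE 0.12, 95% interval -0.66 to -0.15) and did not pass over all genes (edgeR adjusted p = 0.136, unadjusted p = 0.00573). Without control 2 it was -0.27. A count per gene does not separate the membrane receptor from its soluble splice form.

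**Figure D2:**
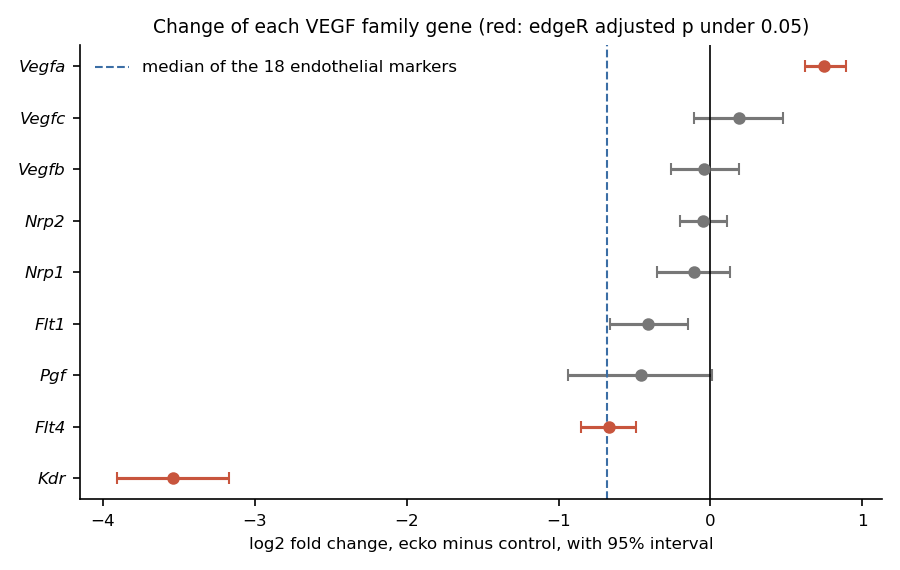
Log2 fold change of each gene (points, horizontal axis) with its unadjusted 95% interval from the edgeR fit; red marks an adjusted p under 0.05 and the dashed line is the median of the 18 endothelial markers, -0.68. Vegfa is the only member whose interval lies wholly above 0, and the intervals of Kdr, Flt4 and Flt1 lie wholly below it.

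The neuropilin genes showed no change past the test. Nrp1 (Entrez 18186, chromosome 8 from 128358591 to 128505476), the co-receptor for VEGF-A, was at 69.8, 88.3 and 78.2 CPM in controls and at 62.5, 75.2 and 80.8 CPM in ecko. The groups overlapped, and the log2 fold change was -0.11 (95% interval -0.35 to 0.13, edgeR adjusted p = 0.69). Nrp2 (Entrez 18187, chromosome 1 from 62703317 to 62818692), the co-receptor for VEGF-C on lymphatic vessels, was at 42.5, 42.3 and 48.3 CPM in controls and at 43.3, 42.8 and 42.9 CPM in ecko. Only control 3 stood apart, and the log2 fold change was -0.05 (95% interval -0.20 to 0.11, edgeR adjusted p = 0.815). Both intervals lie above the Flt4 estimate of -0.67.

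Vegfa (Entrez 22339, chromosome 17 from 46016993 to 46032377) was at 52.1, 49.2 and 47.3 CPM in controls and at 82.6, 86.2 and 81.9 CPM in ecko. The lowest ecko library was far above the highest control. The mean rose 1.69-fold, from 49.5 ± 2.41 to 83.5 ± 2.29 CPM (SD, n = 3 each), a log2 fold change of 0.75 (SE 0.06, 95% interval 0.62 to 0.89, edgeR adjusted p = 0.000716). It was 0.74 between the male and 0.79 between the female libraries. By p-value Vegfa was number 7 of the 14866 genes, although 171 genes had a higher log2 fold change. The count sums its splice isoforms, whose proteins differ in how they bind matrix.

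Markers of the cells that can make VEGF-A were read beside it. Over all tested genes 0.686% rose and 1.08% fell past the test. Of 16 keratinocyte markers, 1 rose (Krt1, a keratin of differentiating layers, 0.76, SE 0.15) and 0 fell, with a median of 0.09. Vegfa relative to the mean log2 CPM of that list was at -4.49, -4.56 and -4.72 in controls and at -4.02, -3.91 and -3.96 in ecko. The difference was 0.63 between groups that did not overlap (two-sided exact permutation p = 0.1). This comparison was not planned. The list mean itself moved by only 0.13, so the difference largely restates the rise of Vegfa. Of 10 macrophage markers 0 passed in edgeR or DESeq2 and 1 had an unadjusted edgeR p under 0.05. All 10 estimates lay above 0, with a median of 0.25. The smallest p values were those of Mrc1 (0.42, edgeR adjusted p = 0.227, no overlap) and Fcgr1 (0.56, edgeR adjusted p = 0.436, with overlap). Summed levels were 476 to 776 CPM in controls and 768 to 785 CPM in ecko. The part of these cells in the Vegfa value was not tested. In whole tissue, a difference in the number of cells of a type and a difference in RNA per cell cannot be told apart.

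The other ligand genes did not pass. Vegfb (Entrez 22340, chromosome 19 from 6982472 to 6987651), a ligand of VEGFR1 linked to fat and muscle, was at 17.5, 17.9 and 16.2 CPM in controls and at 17.8, 17.6 and 14.9 CPM in ecko. The groups overlapped, with a log2 fold change of -0.04 (95% interval -0.26 to 0.19, edgeR adjusted p = 0.907). Vegfc (Entrez 22341, chromosome 8 from 54077532 to 54186454), the main lymphatic growth factor gene, was at 9.64, 13.4 and 10.3 CPM in controls and at 12.9, 12.0 and 13.2 CPM in ecko. Control 2 was as high as the ecko libraries, and the log2 fold change was 0.19 (95% interval -0.11 to 0.48, edgeR adjusted p = 0.555). Without control 2 it was 0.35. Vegfc alone among the 9 had fractional counts, in all 6 libraries, so part of its reads were divided by estimate and its level is less certain.

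Pgf (Entrez 18654, chromosome 12 from 85166637 to 85177785) encodes placental growth factor, a second VEGFR1 ligand. It was the least abundant ligand, at 2.71, 2.56 and 2.49 CPM in controls and at 1.39, 2.10 and 2.12 CPM in ecko, from 44 to 47 reads and 24 to 38 reads. The groups did not overlap, but ecko 1 was well below the other ecko libraries, and the log2 fold change of -0.46 (95% interval -0.94 to 0.01) did not pass (edgeR adjusted p = 0.337). Without ecko 1 it was -0.29. Vegfd, the remaining VEGF ligand gene and not one of the 9, had 9.10 and 10.8 CPM in the means of controls and ecko, a log2 fold change of 0.24 (edgeR adjusted p = 0.337).

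Levels of different genes were compared as CPM per kb of exon, since longer transcripts give more reads. In controls Vegfa and Vegfb were the most abundant, at 11.6 ± 0.562 and 10.7 ± 0.554 CPM per kb (SD, n = 3 each), with overlapping ranges. Nrp1 followed at 8.05 CPM per kb, and Vegfc, Nrp2, Kdr and Flt4, between 4.54 and 3.29, each overlapped their neighbour in the order. Flt1 at 1.65 and Pgf at 0.892 CPM per kb were lowest and overlapped neither each other nor Flt4. In ecko, Vegfa at 19.5 ± 0.534 CPM per kb stood clear of Vegfb at 10.4 ± 1.03, and Kdr moved from rank 6 to rank 9, at 0.286 ± 0.0762 CPM per kb. With the longest transcript as the length, Nrp1 led in controls at 21.6 and Vegfa came next at 14.3 CPM per kb, so the order at the top depended on the gene model, whereas Vegfa at 24.2 led Nrp1 at 20.0 in ecko.

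**Figure D3:**
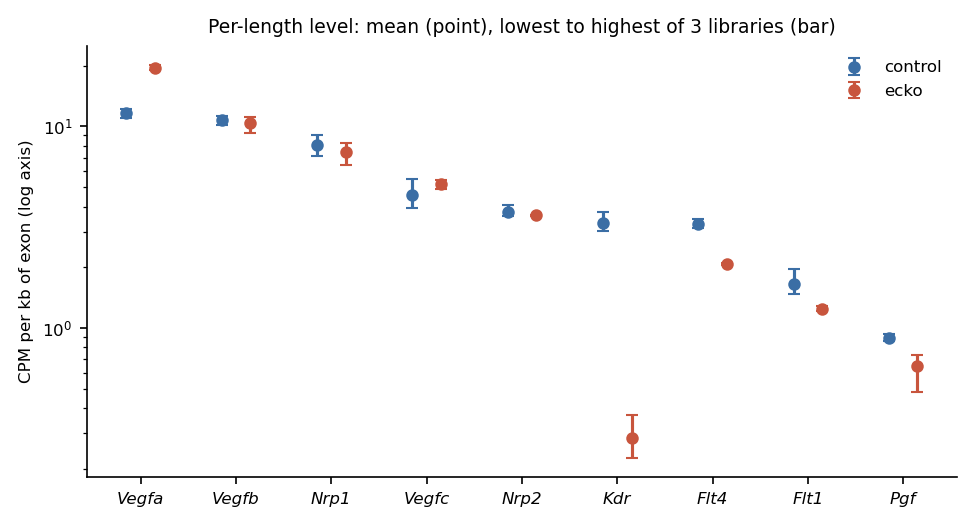
Level per length in CPM per kb of exon (log axis) for the 9 genes, ordered by the control mean; points are means and bars run from the lowest to the highest of 3 libraries, controls in blue and ecko in red. Kdr drops from 3.33 to 0.286 and Vegfa climbs from 11.6 to 19.5 CPM per kb.

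The make-up of the family shifted with these 3 genes. Among the receptor tyrosine kinases, Kdr made up 40.2 ± 2.53% of the summed level per length in controls and 7.90 ± 1.80% in ecko (SD, n = 3 each). Flt4 went from 39.8 ± 0.996% to 57.6 ± 1.40% of that sum, and Flt1 from 19.9 ± 3.07% to 34.5 ± 0.591%, although the levels of both were lower in every ecko library than in every control. The sum of the 3 was 8.27 ± 0.511 CPM per kb in controls and 3.60 ± 0.131 in ecko. Among the 4 ligands, the Vegfa share was 43.5%, 39.6% and 42.1% in controls and 53.3%, 54.8% and 55.4% in ecko.

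Ratios between members were read in each library. Flt1 to Kdr was 0.503, 0.605 and 0.393 in controls and 3.44, 5.42 and 4.70 in ecko, 9.03 times higher in the mean. The 4 ligands together were at 3.63, 3.44 and 3.02 times the 3 tyrosine kinase receptors in controls and at 9.64, 10.5 and 9.67 times in ecko. Vegfa to Vegfb went from 1.08 ± 0.0455 to 1.88 ± 0.169, while Nrp1 to Nrp2 was 2.16 ± 0.320 and 2.05 ± 0.274 (SD, n = 3 each). These ratios are a description: those with Kdr in them carry its deletion, and Vegfa to Vegfb restates the rise of Vegfa. The summed ratio also carries the higher Vegfa and the lower Flt4 and Flt1. Its ligand sum alone was 27.7 ± 1.42 CPM per kb in controls and 35.8 ± 1.13 in ecko. Of the 5 ratios computed, only Nrp1 to Nrp2 held neither Kdr nor Vegfa. The groups of Nrp1 to Nrp2 overlapped (two-sided exact permutation p = 0.7, and 0.7 adjusted over the 5).

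Endothelial markers fell in the same libraries, so each receptor was also set against them. Over all tested genes 1.08% fell past the test. Of 18 endothelial markers 11 fell and 0 rose, with a median of -0.68, and their summed level was 598 to 631 CPM in controls and 406 to 417 CPM in ecko. Those that fell included Cdh5 of the endothelial junction, from 60.4 ± 2.87 to 31.6 ± 1.48 CPM (SD, n = 3 each). Tie1, an endothelial receptor kinase, went from 37.6 ± 2.93 to 17.9 ± 0.640 CPM. Those that did not pass were Sox17, Egfl7 and Eng (-0.89, -0.61 and -0.35), Clec14a, Ecscr and Erg (-0.26, -0.24 and -0.17) and Sox7. Sox7, at 0.28, was the only 1 of the list above 0. Of 12 lymphatic markers 4 fell and 0 rose, with a median of -0.31 and sums of 578 to 698 CPM against 517 to 545 CPM. The 4 were Prox1, the transcription factor of lymphatic identity (-0.95, SE 0.13), Klhl4 (-0.88), Ccl21a (-0.85) and Mmrn1 (-0.56). Lyve1, a hyaluronan receptor of lymphatic capillaries, was at -0.36 (edgeR adjusted p = 0.144). Also short of the test were Reln, Gpr182 and Stab1 (-0.33, -0.29 and -0.15) and Sema3d, Fgl2, Tbx1 and Pdpn (-0.03, -0.04, 0.05 and 0.13). Both lists were written with earlier results of these data known.

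Relative to the mean log2 CPM of the 18 endothelial markers, Flt4 was at -0.09, 0.01 and 0.14 in controls and at -0.03, -0.04 and -0.06 in ecko, so the groups overlapped and differed by -0.06. Relative to Pecam1 and Cdh5 alone the Flt4 difference was 0.06. Relative to the mean of the 12 lymphatic markers, a reference added once the data had been seen, it was -0.31 with no overlap. That mean itself moved by only -0.35, since it also holds the markers near 0 given above. The 4 markers that passed were at -0.95 to -0.56, against -0.67 for Flt4. They were singled out by their fall in these same libraries, so they cannot serve as a second reference. Whether the Flt4 difference depends on the markers listed was not tested. Against the 18 endothelial markers, Flt1 was at -0.42, -0.02 and -0.39 in controls and at -0.03, -0.06 and -0.12 in ecko, a difference of 0.21 with overlap. Against Pecam1 and Cdh5 alone the Flt1 difference was 0.33 with no overlap (exact permutation p = 0.1, or 0.125 adjusted over the 5 receptors), and against the lymphatic markers it was -0.04 with overlap. Against the endothelial markers Kdr differed by -2.96. Nrp1 and Nrp2 stood higher against them in ecko, by 0.49 and 0.56, with no overlap between groups. The mean of these markers itself moved by -0.6, so a gene whose level did not change stands higher on this scale. The log2 fold changes of Nrp1 and Nrp2 were -0.11 and -0.05, so these 2 differences mostly restate the fall of the reference. Against the lymphatic markers the Nrp1 difference was 0.24 and the groups overlapped (exact permutation p = 0.2), while that of Nrp2 was 0.31 with no overlap. Against the endothelial markers Nrp2 stood at 0.63, 0.66 and 0.89 in the control libraries and at 1.29, 1.31 and 1.26 in the ecko libraries. Kdr, Nrp1 and Nrp2 each gave a two-sided exact permutation p of 0.1, the smallest possible, or 0.167 adjusted over the 5 receptors, and Flt1 and Flt4 gave exact p values of 0.4 and 0.5. The share of Nrp1 and Nrp2 reads that came from cells other than endothelium was not tested.

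**Figure D4:**
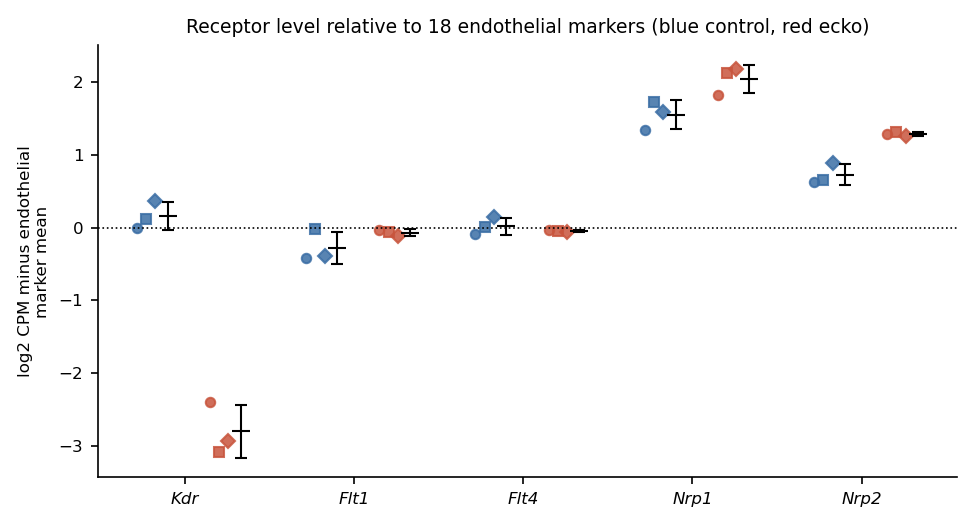
Log2 CPM of each receptor gene minus the mean log2 CPM of 18 endothelial markers in each library (controls blue, ecko red; symbols mark replicates 1 to 3, black bars the mean and SD). Flt4 and Flt1 overlap between groups, Kdr lies between -3.08 and -2.39 in ecko, and Nrp1 and Nrp2 lie higher in every ecko library than in any control.

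Genes with the most similar profile were sought for each member that passed. The measure was the root mean square difference of log2 CPM from the control mean over the 6 libraries. Candidates were 11984 genes with approved-style symbols and a mean of at least 5 CPM. Closest to Vegfa were Il22ra2, the gene of a soluble IL-22 receptor (0.044), Clca3a2 (0.067) and Ak4, a mitochondrial adenylate kinase gene (0.090). Il22ra2 went from 21.8 to 36.8 CPM in the mean and Ak4 from 19.0 to 31.1 CPM. Closest to Flt4 were Vash1, the gene of the angiogenesis inhibitor vasohibin 1 (0.059), Fads2, a fatty acid desaturase gene (0.076), and Tek, which encodes the angiopoietin receptor TIE2 (0.089). None of these candidates came near Kdr, whose closest profiles, Mup22, Thrsp and Dll4, were 1.459 to 1.488 away. Kdr is the deleted gene at -3.54, the lowest of all tested genes, and these 3 were at -1.59 to -1.51. Its distance from them thus largely restates the deletion. Mup22 has near-identical paralogs, so its count is uncertain.

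Other genes of the pathway were read from lists by role. Over all tested genes, 1.76% passed (0.686% higher and 1.08% lower). Of 29 tested genes for ligand processing, semaphorins, plexins, heparan sulfate carriers and receptor phosphatases, 0 rose and 2 fell, with a median of 0.01. These were Vash1, from 21.2 ± 0.771 to 13.9 ± 0.696 CPM (-0.61, SE 0.09, edgeR adjusted p = 0.00941), and Adamts14, a procollagen protease gene, from 91.9 ± 4.45 to 71.8 ± 3.27 CPM (SD, n = 3 each; -0.36, SE 0.06, edgeR adjusted p = 0.0253). Ccbe1 and Adamts3, whose products activate VEGF-C, were at 0.18 and 0.11 and did not pass. Of 51 genes of intracellular signalling below the receptors, 1 rose and 0 fell, with a median of 0.01. That count is near the share over all tested genes. It was Vav3, a guanine nucleotide exchange factor gene (0.30, SE 0.06, edgeR adjusted p = 0.0454).

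Part of the genes listed as responsive to VEGF in endothelium fell. Of 25 tested, 7 fell and 0 rose, with a median of -0.09, where 1.08% of all tested genes fell. Dll4, the Notch ligand of tip cells, went from 10.2 ± 0.763 to 3.56 ± 0.555 CPM, and the apelin receptor gene Aplnr from 10.6 ± 2.07 to 4.30 ± 0.323 CPM (SD, n = 3 each). Pdgfb, which recruits pericytes, fell by 0.51 (SE 0.07), Plvap, the gene of the fenestral diaphragm protein, by 0.49 (SE 0.08), and Mcam by 0.38 (SE 0.08). Esm1, a tip cell proteoglycan gene, fell by 2.11 (SE 0.40) from a low 1.73 CPM, and Angpt2, the gene of angiopoietin 2, by 0.55 (SE 0.11). Relative to the endothelial median of -0.68, Dll4, Aplnr and Esm1 had lower estimates and Pdgfb, Plvap, Mcam and Angpt2 higher ones, a difference that was not tested. Dusp5, Egr3 and Adm, also on this list, were at 0.58, 0.27 and 0.33 and did not pass.

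Of 20 genes of oxygen sensing and Vegfa regulation, 2 rose and 1 fell, with a median of 0.02. Over all tested genes 0.686% rose and 1.08% fell, the shares beside which each list here stands. Egln3, a hydroxylase gene that hypoxia induces, rose from 61.7 ± 2.12 to 129 ± 17.0 CPM (SD, n = 3 each; 1.06, SE 0.09, edgeR adjusted p = 0.000951), and Egln1 rose by 0.34 (SE 0.07). Epas1, which encodes HIF-2 alpha and is strongly expressed in endothelium, fell from 161 ± 5.09 to 112 ± 3.91 CPM (SD, n = 3 each; -0.53, SE 0.06, edgeR adjusted p = 0.00253). The remaining marker lists gave 2 of 11 mural cell genes lower (median -0.31; Rgs5 -0.82, Abcc9 -0.50), 4 of 11 adipocyte genes lower (median -0.52; Cfd -1.47), 2 of 12 skeletal muscle genes lower (median -0.47; Tcap -0.78, Ryr1 -0.54; summed level 9940, 7300 and 6630 CPM in controls, where control 1 stood far above the others, and 5550 to 6280 CPM in ecko), and none of 9 fibroblast or 8 nerve genes past the test (medians -0.08 and -0.03). Before adjustment, 0 fibroblast genes and 1 nerve gene had an edgeR p under 0.05, and DESeq2 called 0 and 1. None of these 5 lists had a member that rose in the edgeR test. Cfd was the lowest of the adipocyte list, and the others that passed were Car3 (-0.63), Adipoq (-0.63) and Fabp4 (-0.52). Lep, the only 1 of that list above 0, was at 0.88 (edgeR adjusted p = 0.231). Plin4 was at -0.03.

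**Figure D5:**
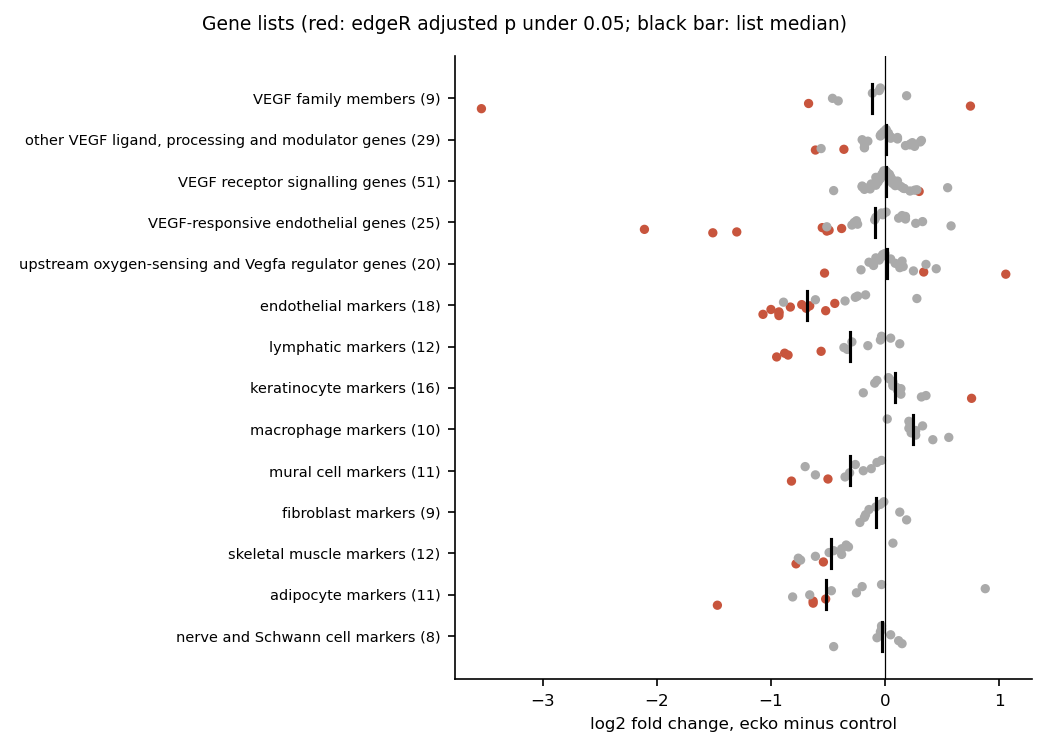
Log2 fold change of each tested gene (points; red where the adjusted p was under 0.05) by list, with the number tested in brackets and a black bar at the list median. The endothelial list has the lowest median, at -0.68, while the signalling list centres on 0.01.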

How the data were processed

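Poly(A) RNA of 6 ear skin libraries (3 control, 3 ecko) was measured. The deposited table gives expected counts, that is, reads per gene estimated by the authors and left unscaled, per the file headers. Fractional values made up 10.5% of them. Per the submitters' processing notes, the tools were RSEM 1.3.1, HISAT2 2.2.1 and Bowtie2 2.4.5 and the build was GRCm38.p6, with no roles stated. The annotation and strand setting are not given in the sources used here.

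Counts were rounded. filterByExpr (minimum count 10) kept 14866 of 18422 genes, and libraries were scaled by TMM. The edgeR 4.0.16 quasi-likelihood test in R 4.3.3 had a genotype term alone, and p-values were Benjamini-Hochberg adjusted over all tested genes and a threshold of 0.05. CPM were taken on TMM-scaled totals, and the fitted biological coefficient of variation was 8.80%. No 2 libraries of a group were duplicates, with counts differing by 4.94 to 15 times the sampling variance. Exon lengths came from GENCODE annotation of GRCm38, gene spans from the RefSeq gene table and upstream windows from the RefSeq promoter table (both GRCm38.p6), in which all 9 genes matched. A window precedes a single transcript start, which for some genes lies inside the gene span. The edgeR script was tested on simulated data.

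The members and all lists were chosen with earlier results of these data known. The genes named were the 9 members, up to 6 genes with the smallest p among those that passed in each list, or 2 where none passed, and the 3 nearest profiles of each member that passed. Vegfd, Ccbe1, Adamts3, Angpt2, Lyve1, Dusp5, Egr3 and Adm were named after their values were seen. So were Reln, Gpr182, Stab1, Sema3d, Fgl2, Tbx1 and Pdpn of the lymphatic list. The same holds for Sox17, Egfl7, Eng, Clec14a, Ecscr, Erg and Sox7 of the endothelial list. It also holds for Lep and Plin4 of the adipocyte list. Not every gene that the rule takes is printed. Alternatives were DESeq2 1.42.0, limma-voom (limma 3.58.1), upper-quartile and RLE factors, other filters, a replicate block, a sex term, male libraries only, each library left out, a threshold of 0.1, and other references or lengths.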

Additional observations from a re-analysis of the deposited data

Results flagged for a closer look

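Nrp2 had estimates of opposite sign in the sexes read from Y-linked genes. Both male ecko libraries, at 43.3 and 42.8 CPM, were just above both male controls, at 42.5 and 42.3 CPM, a log2 fold change of 0.02. In the edgeR fit of the male libraries only, the SE was 0.07, larger than the estimate. The single female ecko library, at 42.9 CPM, was below the single female control, at 48.3 CPM, a log2 fold change of -0.17. Nrp1 also had opposite signs, -0.20 between the male means and 0.05 between the female libraries, but its male ecko values (62.5 and 75.2 CPM) overlapped the male controls (69.8 and 88.3 CPM). The difference between the sexes was not tested for either gene, and Vegfb had 0.00 in the male and -0.12 in the female libraries.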

How the results depend on the processing

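Kdr, Flt4 and Vegfa were the 3 members called, and each passed in all 15 alternative fits: log2 fold changes ran from -3.77 to -3.39 for Kdr, -0.70 to -0.63 for Flt4 and 0.72 to 0.80 for Vegfa, with the highest adjusted p at 0.00149, 0.0369 and 0.00932. The other 6 members passed in none, and Flt1 came nearest (-0.48 to -0.27, adjusted p 0.0643 to 0.33). Vegfb turned sign in the male libraries only (0.00) and without ecko 3 (0.04), and Nrp2 in the male libraries only (0.02) and without control 3 (0.02). Leaving out single libraries gave -3.77 to -3.40 for Kdr, -0.70 to -0.63 for Flt4, 0.72 to 0.80 for Vegfa, -0.48 to -0.27 for Flt1, -0.08 to 0.04 for Vegfb, 0.10 to 0.35 for Vegfc, -0.56 to -0.29 for Pgf, -0.19 to -0.02 for Nrp1 and -0.08 to 0.02 for Nrp2. The number of members called was 3 throughout.

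The count over all genes was less stable. It was 262, against 426 with DESeq2, 174 in the male libraries only and 451 at a threshold of 0.1, and 56 to 407 with 1 library left out (56 without ecko 2, 74 without ecko 1, 116 without control 2, 132 without ecko 3, 161 without control 1, 407 without control 3). By list, DESeq2 called 4 mural cell, 7 adipocyte, 2 keratinocyte and 1 nerve gene where edgeR called 2, 4, 1 and 0. It also called 14 endothelial, 3 skeletal muscle and 3 ligand processing and modulator genes where edgeR called 11, 2 and 2. With the replicate block the count over all genes was 192, and Flt4 (adjusted p = 0.0151), Vegfa (0.0034) and Kdr still passed. Same-numbered libraries were not taken as pairs, since the labels do not say that equal numbers mark a litter or day. Their deviations from the group means correlated at 0.053, 0.0479 and 0.172. Control 2 correlated better with ecko 1 (0.06) than with ecko 2. The highest value, 0.172, was between the female libraries, and male with female libraries correlated at -0.102 to -0.0838. Deviations from a group mean cancel out within the group. A positive value for the female pair thus forces negative ones between female and male libraries, which are not separate evidence. Replicate 3 is the female library in each group, so replicate number and sex coincide in part.

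Relative to Pecam1 and Cdh5 the differences of Flt1, Flt4 and Nrp2 were 0.33, 0.06 and 0.68, and Flt1 no longer overlapped between groups. Relative to the lymphatic markers those of Flt1, Flt4, Nrp1 and Nrp2 were -0.04, -0.31, 0.24 and 0.31, and Nrp1 then overlapped between groups. With single libraries left out, differences from the endothelial mean were -3.17 to -2.82 for Kdr, 0.14 to 0.34 for Flt1, -0.12 to 0.00 for Flt4, 0.38 to 0.60 for Nrp1 and 0.51 to 0.64 for Nrp2, and Vegfa against the keratinocyte markers ran from 0.56 to 0.68. The ecko over control folds of the ratios ran from 8.13 to 10.1 for Flt1 to Kdr, 6.88 to 8.57 for Flt4 to Kdr, 1.65 to 1.81 for Vegfa to Vegfb, 0.898 to 1.04 for Nrp1 to Nrp2 and 2.81 to 3.08 for the summed ligands to receptors. The causes of these shifts were not tested. Pgf, at 24 to 47 reads a library, and Kdr in ecko, at 37 to 58, had the fewest reads.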
